A study of Mus musculus with 24 samples.

Results

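The circadian clock genes described here are 10 of the 37991 genes counted in mouse subcutaneous inguinal fat, chosen by name. They are the activators Arntl, Npas2 and Clock, the period genes Per1, Per2 and Per3, the nuclear receptor repressors Nr1d1 and Nr1d2, and the output factors Dbp and Tef. The study sequenced poly(A) RNA from 24 female mice aged 26 weeks, 1 library per mouse, in a layout of 4 inbred strains by 2 diets with 3 mice in each of 8 groups. CAST/EiJ and WSB/EiJ (both wild-derived), NZO/HiLtJ (an obesity-prone strain) and C57BL/6J (the common laboratory strain) were fed a high-fat diet rich in sucrose, in which fat gave 45% of the energy, or a standard diet, in which fat gave 17%. The labels give no time of day for the collection of the fat pads, so time of day cannot be told apart from strain, diet or single mouse in any result on these genes.

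The clock is a loop of transcription and repression that runs in most cells of the body, adipocytes included, with a period of about a day. ARNTL (also called BMAL1) pairs with CLOCK or its close relative NPAS2, and the pair binds E-box motifs in the genes of its own repressors and outputs. Among these targets are the period genes, whose proteins block the pair, Nr1d1 and Nr1d2, whose proteins bind RORE motifs and repress Arntl and Npas2, and Dbp and Tef, whose proteins bind D-box motifs in further genes. Arntl and Npas2 transcripts therefore peak at about the opposite phase of the day to Nr1d1, Dbp and Per3 in peripheral tissues, while Clock transcript changes little over the day.

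Some promoters of these mouse genes carry such motifs, and 4 windows are shown as examples of the links described above. Promoters of 9 of the 10 genes were in the RefSeq table of the build GRCm38.p6, as 14 windows that run 250 bases before to 50 bases after a start. Both strands were searched for the E-box CACGTG, which 7.15% of all 32851 promoters of that length hold, the E'-box CACGTT (4.68%), the D-box TTANGTAA (2.32%) and the core of the RORE, TAGGTCA (2.61%). An E-box was found in 2 of the 9 genes (3 of their 14 promoters), the other motifs in 1 gene each, and none of them in Npas2, Clock, Nr1d2 or Dbp. An E-box lay at position -166 from the start of Per1 and at positions -127 and -138 in 2 promoters of Tef, a D-box lay at positions -205 and -158 of Per3, the RORE core lay 30 bases after a start of Arntl, and an E'-box lay at position -28 of Nr1d1. The sequences run 5′ to 3′ on the gene's own strand, with the motif in capitals, for Per1 at chr11:69098699-69098948 (plus strand), Tef at chr15:81802423-81802672 (plus strand), Per3 at chr4:151044666-151044915 (minus strand) and Arntl at chr7:113207530-113207559 (plus strand).
Per1: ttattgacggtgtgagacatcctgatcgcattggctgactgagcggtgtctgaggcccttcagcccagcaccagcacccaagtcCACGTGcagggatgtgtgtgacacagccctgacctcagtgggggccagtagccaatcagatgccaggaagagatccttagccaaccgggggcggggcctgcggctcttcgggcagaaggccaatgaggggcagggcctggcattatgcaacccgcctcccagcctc
Tef: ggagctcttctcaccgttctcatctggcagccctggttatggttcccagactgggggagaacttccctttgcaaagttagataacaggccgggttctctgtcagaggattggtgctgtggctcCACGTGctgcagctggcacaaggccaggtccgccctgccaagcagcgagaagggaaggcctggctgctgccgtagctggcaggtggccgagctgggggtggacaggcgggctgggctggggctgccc
Per3: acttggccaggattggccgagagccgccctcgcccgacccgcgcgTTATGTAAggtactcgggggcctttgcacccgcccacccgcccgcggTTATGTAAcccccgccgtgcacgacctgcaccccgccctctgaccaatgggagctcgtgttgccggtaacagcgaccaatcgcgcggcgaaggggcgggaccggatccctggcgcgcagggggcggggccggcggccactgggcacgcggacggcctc
Arntl: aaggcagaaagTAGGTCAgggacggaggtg
A match is a description of the letters, not a measured binding site, and the windows are those of the reference genome, not of the 4 strains. The counts were made against an older build, so these coordinates apply to the sequences only.

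Depth ranged between 47651641 and 84009032 counts per library. All 10 clock genes passed the filter on low counts, as did 20035 genes in all, and their counts ran between 11 (Npas2 in its lowest library) and 24635 (Tef in its highest). Levels of the clock genes are CPM scaled by TMM to a common library size, and those of markers are plain CPM of the library's total count. In adipocyte markers a single library stood apart: CAST/EiJ high-fat replicate 1 held Adipoq, which encodes the adipocyte hormone adiponectin, at 4.75 CPM, against at least 621 CPM elsewhere. Together 6 adipocyte markers came to 29.2 CPM there and 4760 to 14900 CPM in the other 23, while the library held 8160 CPM of 4 smooth muscle markers, 4020 CPM of 4 kidney markers and 508 CPM of 6 epithelial markers. Its label of subcutaneous fat goes against these markers, so many of the results that rest on it are also given without it. The epithelial marker Epcam reached 5.67 to 175 CPM in 6 libraries, among them all 3 of the WSB/EiJ high-fat group, and stayed at or below 2.8 CPM in the rest. Other libraries held markers of further tissues: WSB/EiJ high-fat replicate 2 had 2160 CPM of 4 brain markers, WSB/EiJ high-fat replicate 3 had 920 CPM of 4 urothelium markers, and CAST/EiJ standard replicate 2 had 852 CPM of 4 skeletal muscle markers, against at most 65.0, 27.0 and 72.4 CPM elsewhere. The 4 liver markers summed to 842, 1400 and 149 CPM in NZO/HiLtJ standard mice. They summed to 673 CPM in CAST/EiJ standard replicate 2 and to at most 297 CPM in the remaining libraries. In the results that follow, the library that stood apart is the one low in adipocyte markers. No adipocyte or epithelial marker was at 0 throughout a group.

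CAST/EiJ fat held less Arntl and Clock, and more Per2, Per3, Nr1d2, Dbp and Tef, than C57BL/6J fat. Of the 10 clock genes, 5 were higher and 2 lower in CAST/EiJ than in C57BL/6J with both diets weighted equally (edgeR's quasi-likelihood test with Benjamini-Hochberg adjustment over all genes tested, adjusted p below 0.05, as for every adjusted p here), in a comparison where 39% of all tested genes were called, 18.7% higher and 20.2% lower. Without the CAST/EiJ high-fat library that stood apart, 8 of the 10 were called, against 48.8% of all genes, with Npas2 added among the lower ones. The share of members called was above the share of all genes in both fits, and the members were chosen with earlier results of these data known. The strain comparisons share libraries with each other.

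Arntl, the activator without which the loop stops, had 18.3, 2.82 and 2.67 CPM in CAST/EiJ mice on the high-fat diet and 2.31, 1.94 and 2.13 CPM in CAST/EiJ mice on the standard diet. In WSB/EiJ mice it had 17.3, 25.7 and 9.69 CPM on the high-fat diet, against 11.7, 17.1 and 17.0 CPM on the standard diet, and in NZO/HiLtJ mice 21.5, 23.5 and 19.3 CPM against 15.6, 15.5 and 12.9 CPM. C57BL/6J mice had 29.5, 27.5 and 11.4 CPM on the high-fat diet, against 16.1, 8.75 and 10.3 CPM on the standard diet. Of the 6 CAST/EiJ libraries, 5 lay below every library of the other strains, and the library low in adipocyte transcripts was the exception. The median was 2.49 CPM over the 6 CAST/EiJ libraries and 16.5 CPM over the 18 libraries of the other 3 strains. In bulk tissue, fewer cells with a transcript and less of it per cell cannot be told apart. The log2 fold change of CAST/EiJ over C57BL/6J was -1.99 ± 0.40 (SE, adjusted p = 0.000673), and -2.75 (adjusted p = 2.53e-07) without the library that stood apart.

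**Figure D1:**
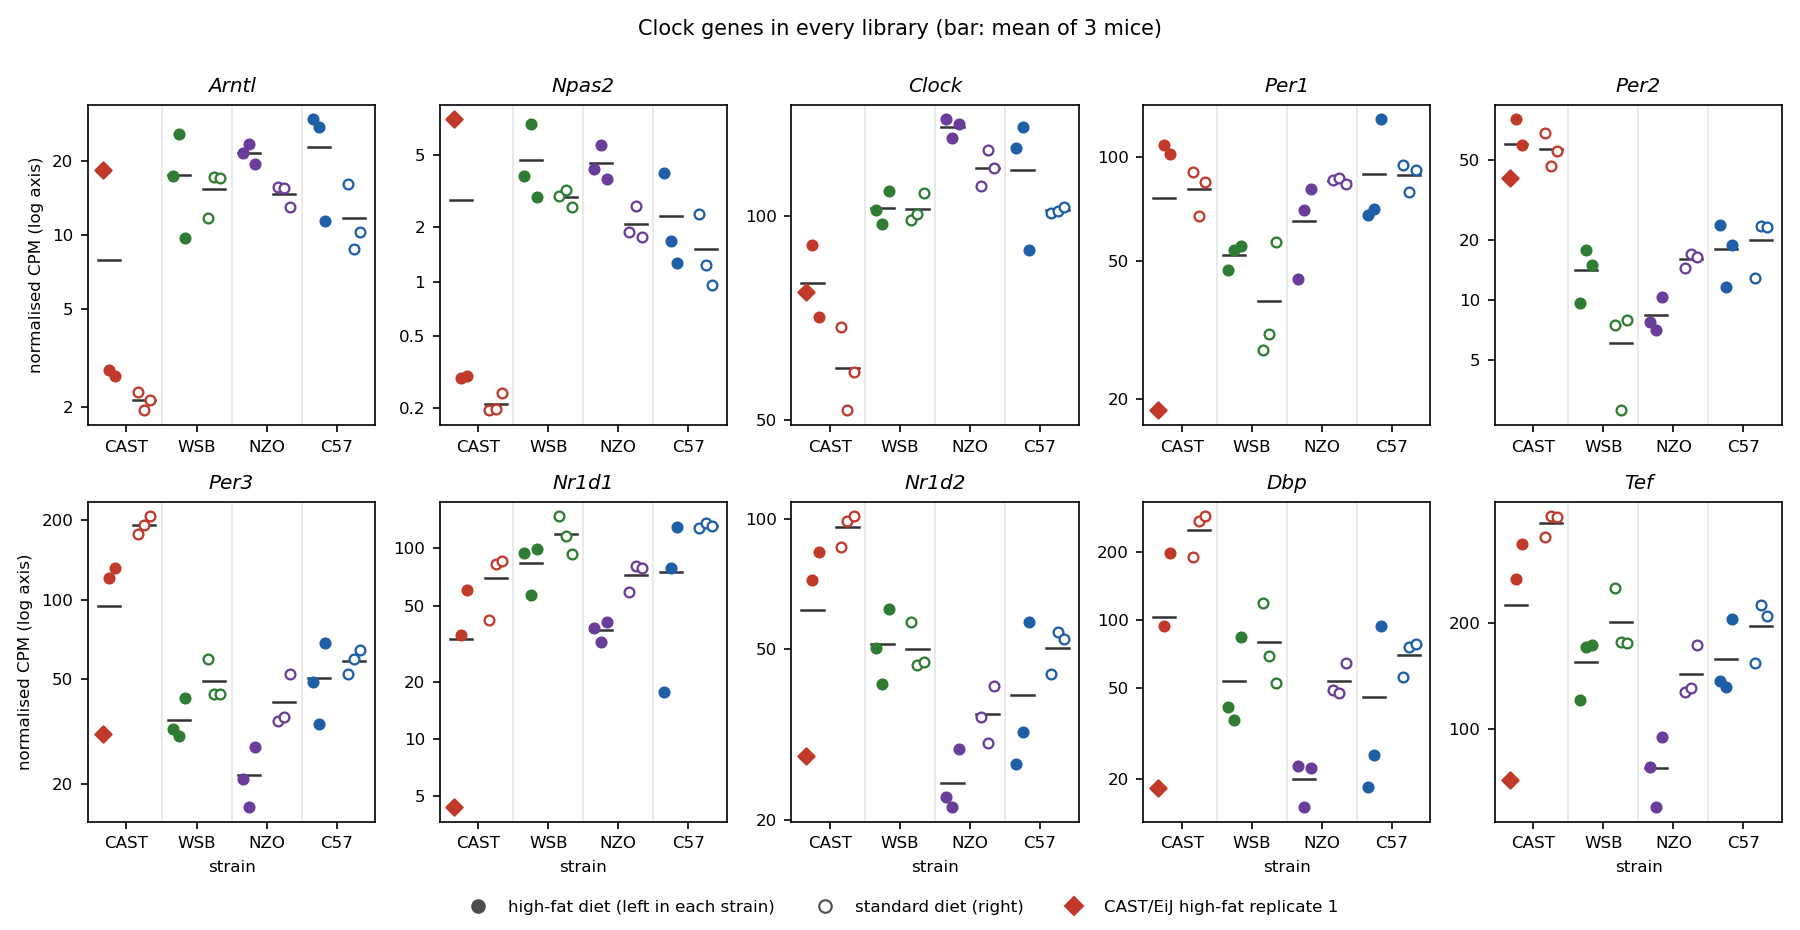
Normalised CPM of the 10 clock genes on log axes in every library, with high-fat mice as filled and standard-diet mice as open points within each strain and the group mean of 3 mice as a bar. The diamond is the CAST/EiJ high-fat library low in adipocyte markers. The other 5 CAST/EiJ libraries sit below those of the other strains in Arntl and Npas2 and above them in Per2, Per3 and Nr1d2.

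Npas2, the relative of Clock that can take its place beside ARNTL, showed the same split. It had 7.88, 0.294 and 0.302 CPM in CAST/EiJ high-fat mice and 0.195, 0.198 and 0.244 CPM in CAST/EiJ standard mice, where the lowest library held 11 counts. The C57BL/6J mice had 4.00, 1.68 and 1.27 CPM on the high-fat diet, against 2.37, 1.24 and 0.957 CPM on the standard diet. The same 5 CAST/EiJ libraries lay below all 18 libraries of the other strains, whose range was 0.957 to 7.38 CPM, while the remaining CAST/EiJ library lay above all of them. The group means spanned a ratio of 22.2 between WSB/EiJ high-fat and CAST/EiJ standard mice, the widest of the 10 genes. With all libraries, CAST/EiJ over C57BL/6J was -1.27 ± 0.60 (log2, adjusted p = 0.106) and did not pass the test. Without the library that stood apart it was -2.88 (adjusted p = 2.82e-06), and within the standard diet alone it was -2.83 (adjusted p = 0.0264).

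Clock, the partner of ARNTL, varied less between mice than the other members, with a biological coefficient of variation of 13.1% against 26.8% to 68.2% for the other 9. CAST/EiJ mice had 77.4, 90.7 and 71.1 CPM on the high-fat diet, against 68.6, 51.7 and 58.98 CPM on the standard diet. NZO/HiLtJ mice had 139, 131 and 137 CPM on the high-fat diet, against 111, 125 and 118 CPM on the standard diet. In C57BL/6J mice the values were 126, 136 and 89.3 CPM on the high-fat diet, against 101, 102 and 103 CPM on the standard diet. The CAST/EiJ and NZO/HiLtJ ranges did not overlap on either diet, and 1 CAST/EiJ library (90.7 CPM) lay above the lowest C57BL/6J library. The log2 fold change was -0.66 ± 0.09 for CAST/EiJ over C57BL/6J (adjusted p = 1.42e-05) and 0.87 ± 0.09 for NZO/HiLtJ over CAST/EiJ (adjusted p = 3.65e-07). Without the library that stood apart these were -0.64 and 0.86.

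Of the targets, Dbp, Tef, Per2, Per3 and Nr1d2 ran the other way. Dbp, a direct output of the loop, had 18.3, 93.9 and 196 CPM in CAST/EiJ high-fat mice and 190, 271 and 287 CPM in CAST/EiJ standard mice. The WSB/EiJ values were 41.4, 36.3 and 84.2 CPM on the high-fat diet, against 119, 69.2 and 52.9 CPM on the standard diet, and the NZO/HiLtJ values 22.9, 15.0 and 22.2 CPM against 49.02, 47.8 and 64.9 CPM. C57BL/6J mice had 18.4, 25.5 and 93.8 CPM on the high-fat diet, against 55.9, 75.9 and 78.4 CPM on the standard diet. The 3 CAST/EiJ standard libraries and 1 CAST/EiJ high-fat library lay above every library of the other strains, whose highest value was 119 CPM. Dbp was higher in CAST/EiJ than in C57BL/6J by 1.50 ± 0.45 on the log2 scale (adjusted p = 0.0131), and by 1.76 (adjusted p = 0.000754) without the library that stood apart. It lost the call without CAST/EiJ high-fat replicate 3 (adjusted p = 0.05401).

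Tef, a relative of Dbp that binds the same motif, averaged 225 ± 137 CPM in CAST/EiJ high-fat mice and 385 ± 28.5 CPM in CAST/EiJ standard mice (SD, n = 3 each), with 71.4 CPM in the library that stood apart and 267 to 403 CPM in the other 5. The libraries of the other 3 strains ran between 59.7 and 251 CPM, so these 5 did not overlap them. CAST/EiJ over C57BL/6J was 0.74 ± 0.26 (log2, adjusted p = 0.0303), and 0.96 (adjusted p = 0.000105) without the library that stood apart. The call was lost without C57BL/6J standard replicate 1, C57BL/6J high-fat replicate 1 or 2, CAST/EiJ standard replicate 2 or 3, or CAST/EiJ high-fat replicate 2 or 3.

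Per2, whose protein blocks the activating pair, was the member whose CAST/EiJ libraries stood clear of all others with no exception. It had 40.5, 80.3 and 59.3 CPM in CAST/EiJ high-fat mice and 68.1, 46.6 and 55.5 CPM in CAST/EiJ standard mice, against 2.79 to 23.7 CPM over the 18 libraries of the other strains. The library low in adipocyte transcripts was the lowest of the 6 at 40.5 CPM and still above that range. CAST/EiJ exceeded C57BL/6J by 1.63 ± 0.26 (log2, adjusted p = 6.28e-05) and WSB/EiJ by 2.66 ± 0.27 (adjusted p = 3e-07), and NZO/HiLtJ over CAST/EiJ was -2.34 ± 0.27 (adjusted p = 8.72e-07). Without the library that stood apart these were 1.74, 2.77 and -2.45.

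Per3, the third period gene, had 30.8 (the library that stood apart), 121 and 131 CPM in CAST/EiJ high-fat mice and 178, 193 and 208 CPM in CAST/EiJ standard mice. C57BL/6J mice had 48.7, 33.6 and 68.2 CPM on the high-fat diet, against 52.1, 59.3 and 64.1 CPM on the standard diet. The other 5 CAST/EiJ libraries lay above all 18 others, whose range was 16.3 to 68.2 CPM. CAST/EiJ over C57BL/6J was 1.31 ± 0.26 (log2, adjusted p = 0.000644), and 1.53 without the library that stood apart. Per1, which also answers to glucocorticoids and other acute signals, did not follow Per2 and Per3: CAST/EiJ libraries ran between 18.6 and 108 CPM and C57BL/6J libraries between 67.8 and 128 CPM, with a log2 difference of -0.18 (adjusted p = 0.685). It was lower in WSB/EiJ than in C57BL/6J mice (log2 fold change -0.99 ± 0.31, adjusted p = 0.0216), with 47.2, 53.8 and 55.1 CPM on the high-fat diet, against 27.7, 30.7 and 56.7 CPM on the standard diet in WSB/EiJ mice, all below the lowest C57BL/6J library.

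The receptors for haem that repress Arntl split. Nr1d2 had 28.3, 72.2 and 83.9 CPM in CAST/EiJ high-fat mice and 86.4, 99.2 and 102 CPM in CAST/EiJ standard mice, against 27.1, 32.1 and 57.9 CPM in C57BL/6J high-fat and 43.7, 54.7 and 52.7 CPM in C57BL/6J standard mice. Apart from the library low in adipocyte transcripts, the CAST/EiJ values lay above the 21.4 to 62.0 CPM of the other 3 strains, and CAST/EiJ over C57BL/6J was 0.79 ± 0.22 (log2, adjusted p = 0.00776). Without that library it was 0.97. Nr1d1 had 4.36, 35.0 and 60.4 CPM in CAST/EiJ high-fat mice and 42.2, 82.6 and 85.9 CPM in CAST/EiJ standard mice, against 17.5, 78.7 and 130 CPM in C57BL/6J high-fat and 128, 136 and 132 CPM in C57BL/6J standard mice. Its CAST/EiJ standard libraries lay below the C57BL/6J standard ones, the opposite side to Nr1d2, but the strain difference of -1.05 ± 0.45 (log2) had an adjusted p of 0.075 and did not pass, nor did it without the library that stood apart (-0.77, adjusted p = 0.075). Nr1d1 was the member for which the test of any difference among the 4 strains did not pass (adjusted p = 0.0641). Without the library that stood apart it passed (adjusted p = 0.02185) and so did the other 9, against 80% of all genes. With all libraries the other 9 passed it, as did 68.2% of all genes, with adjusted p between 1.17e-07 for Per2 and 0.0446 for Per1. Per1 passed in 6 of the 24 fits that each left out 1 library, with adjusted p up to 0.1205.

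On the standard diet, 9 of the 10 members did not overlap between CAST/EiJ and C57BL/6J mice, as for 57.5% of all genes tested. Per2, Per3, Nr1d2, Dbp and Tef lay above in all 3 CAST/EiJ mice, Arntl, Npas2, Clock and Nr1d1 lay below, and Per1 overlapped. A test of the standard-diet groups called 7 of the 10, against 28% of all genes. Tef (0.98, log2, adjusted p = 0.0559), Nr1d1 (-0.91) and Per1 (-0.13) did not pass it. Without CAST/EiJ standard replicate 2, the library with the skeletal muscle markers, 4 were called (Arntl, Clock, Per2 and Per3) against 23% of all genes, in a fit chosen after seeing the data. Among high-fat groups, which include the library that stood apart, 2 were called against 25.9% of all genes, namely Per2 (1.74) and Clock (-0.55), and Npas2 had a log2 fold change of 0.29. Without that library, in a fit also chosen after seeing the data, 8 were called against 31% of all genes (all but Nr1d1 and Per1), and Npas2 had -2.95 (adjusted p = 0.0003875).

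Against WSB/EiJ, the second wild-derived strain, CAST/EiJ had 6 members higher and 3 lower (35.5% of all genes called, 17.3% higher and 18.1% lower). The higher ones were Per2, Per3 (1.70 ± 0.27, log2), Dbp (1.28 ± 0.45), Per1 (0.81 ± 0.31), Tef (0.74 ± 0.26) and Nr1d2 (0.60 ± 0.22), and the lower ones Npas2 (-2.25 ± 0.62), Arntl (-2.00 ± 0.40) and Clock (-0.57 ± 0.09). Without the library that stood apart, the higher ones had 2.77 (Per2), 1.91 (Per3), 1.53 (Dbp), 1.04 (Per1), 0.95 (Tef) and 0.77 (Nr1d2). The lower ones had -3.87 (Npas2), -2.76 (Arntl) and -0.56 (Clock) in that fit. The count was 5 without CAST/EiJ standard replicate 2 or 3, WSB/EiJ standard replicate 2 or WSB/EiJ high-fat replicate 1, when Per1, Nr1d2, Tef and Dbp lost the call. Over the 24 fits that each left out 1 library, Per1 was called in 4, Nr1d2 in 13, and Tef and Dbp in 17 each. NZO/HiLtJ over CAST/EiJ gave 3 members higher and 5 lower (51.1% of all genes called, 25.1% higher and 26.1% lower), and the count was 8 whichever single library was left out. Arntl was higher by 2.11 ± 0.40, Npas2 by 1.98 ± 0.61 and Clock by 0.87 ± 0.09 on the log2 scale, while Per2 (-2.34 ± 0.27), Dbp (-2.28 ± 0.46), Per3 (-2.18 ± 0.27), Tef (-1.48 ± 0.26) and Nr1d2 (-1.39 ± 0.22) were lower, and Nr1d1 (0.11) and Per1 (-0.07) were not called. Without the library that stood apart, Arntl had 2.87, Npas2 3.6 and Clock 0.86. Per2 had -2.45, Dbp -2.54, Per3 -2.40, Tef -1.70, Nr1d2 -1.56, Nr1d1 -0.16 and Per1 -0.31 in that fit.

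**Figure D2:**
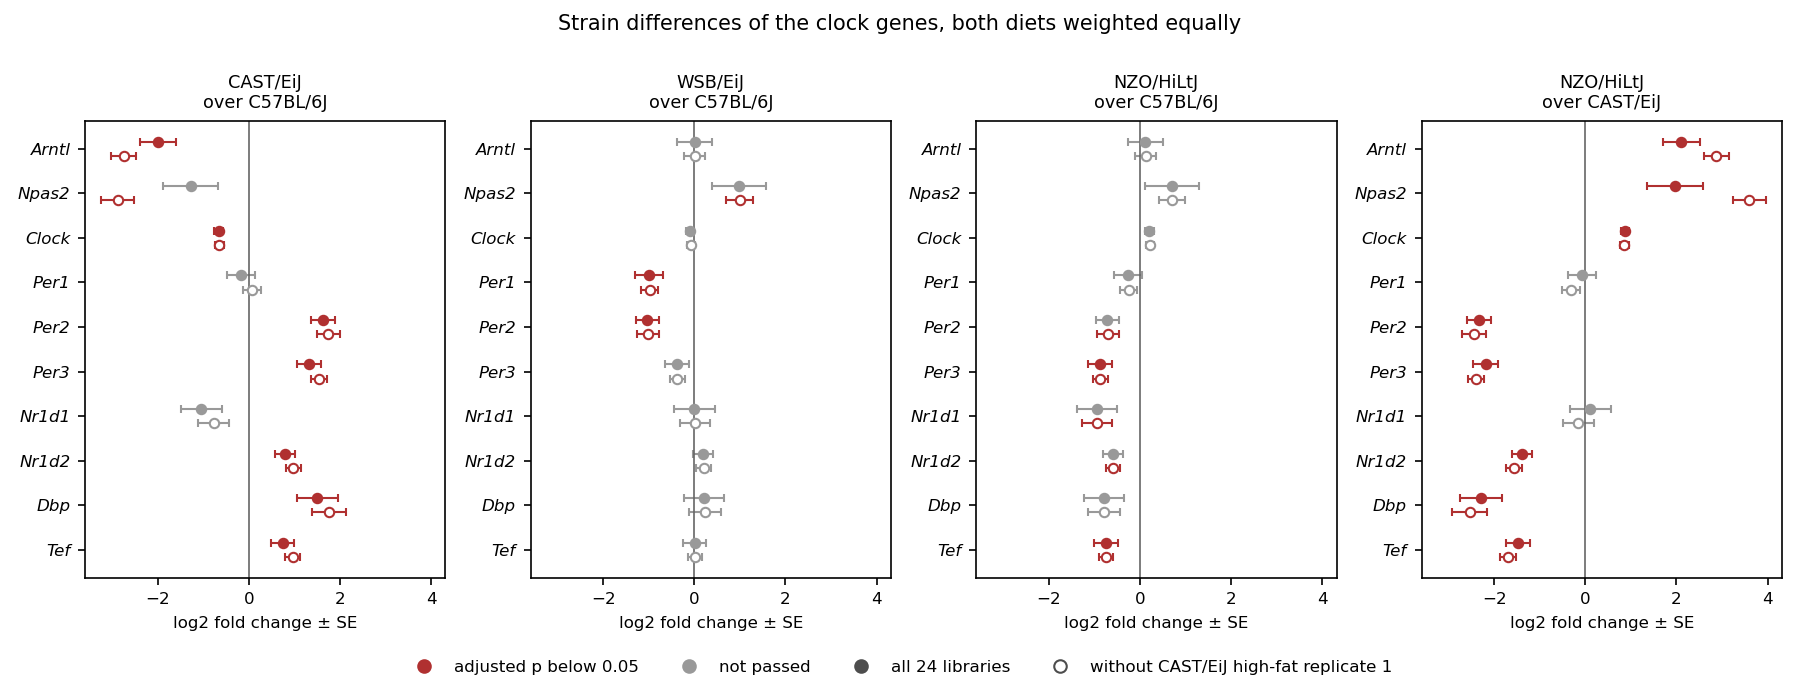
Log2 fold changes of the 10 clock genes, with standard errors, for CAST/EiJ, WSB/EiJ and NZO/HiLtJ over C57BL/6J and for NZO/HiLtJ over CAST/EiJ, both diets weighted equally. Filled points use all 24 libraries, open points leave out the CAST/EiJ high-fat library that stood apart, and red marks an adjusted p below 0.05. Arntl and Clock lie left of 0 and Per2, Per3, Nr1d2, Dbp and Tef right of 0 for CAST/EiJ over C57BL/6J, and on the other side for NZO/HiLtJ over CAST/EiJ.

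Among the 3 strains other than CAST/EiJ the differences covered fewer genes, at shares below those of all genes in each comparison with all libraries. The log2 fold changes of Arntl, Npas2, Clock, Per2, Per3 and Dbp were smaller in size there than in each comparison with CAST/EiJ. This did not hold for Per1, Nr1d1, Nr1d2 and Tef. NZO/HiLtJ mice had lower Per3 (-0.87 ± 0.26, log2, adjusted p = 0.022) and Tef (-0.74 ± 0.26, adjusted p = 0.046) than C57BL/6J mice, which made 2 of 10 against 23.4% of all genes. Per2 (-0.71, adjusted p = 0.0512) and Nr1d2 (-0.59, adjusted p = 0.0569) lay just outside the threshold. The count was 0 without NZO/HiLtJ standard replicate 1 or 2, NZO/HiLtJ high-fat replicate 2 or C57BL/6J high-fat replicate 3, and 4 without C57BL/6J high-fat replicate 2. It was 1 without NZO/HiLtJ high-fat replicate 1 or 3, NZO/HiLtJ standard replicate 3, C57BL/6J standard replicate 2 or 3, any CAST/EiJ standard library, WSB/EiJ high-fat replicate 3 or WSB/EiJ standard replicate 1 or 3. Over the 24 fits that each left out 1 library, Per3 was called in 20 and Tef in 5. Without the library that stood apart, 5 of 10 were called against 35% of all genes, all of them lower in NZO/HiLtJ. NZO/HiLtJ over WSB/EiJ had Clock higher (0.30 ± 0.09) and Nr1d2 (-0.79 ± 0.22) and Tef (-0.75 ± 0.26) lower, 3 of 10 against 45.6%, and 7 of 10 against 56.7% without the library that stood apart. WSB/EiJ over C57BL/6J had Per1 and Per2 (-1.03 ± 0.26, adjusted p = 0.00549) lower, 2 of 10 against 29.5%, and Per1 lost the call without WSB/EiJ standard replicate 1 or 2 or C57BL/6J high-fat replicate 3.

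Ordered by group mean, CAST/EiJ standard mice came last of the 8 groups in Arntl (2.12 ± 0.19 CPM), Npas2 and Clock and first in Per3 (193 ± 15.0 CPM), Nr1d2, Dbp and Tef, while NZO/HiLtJ high-fat mice came last in those 4 targets. C57BL/6J high-fat mice led in Arntl (22.8 ± 9.93 CPM) and Per1, WSB/EiJ high-fat mice in Npas2, NZO/HiLtJ high-fat mice in Clock, CAST/EiJ high-fat mice in Per2 and C57BL/6J standard mice in Nr1d1. Most neighbours in these orders overlapped: of the 7 neighbouring pairs per gene, 0 were separate in Per1 and Dbp, 1 in Arntl, Per2 and Nr1d1, 2 in Npas2, Per3, Nr1d2 and Tef, and 3 in Clock. No share of all genes is given for these pairs, so they only describe the order. The CAST/EiJ high-fat means include the library that stood apart. The ratio of the highest to the lowest group mean was 12.5 for Dbp, 10.7 for Arntl, 9.91 for Per2 and 8.95 for Per3, against 2.32 for Per1 and 2.27 for Clock.

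The second comparison was of diet. Averaged over the 4 strains, mice on the high-fat diet had more Npas2, Arntl and Clock and less Per3, Tef and Dbp than mice on the standard diet, so that 3 members were higher and 3 lower (28.9% of all genes called, 17.1% higher and 11.8% lower). The log2 fold changes were 1.54 ± 0.42 for Npas2 (adjusted p = 0.0165), 0.90 ± 0.28 for Arntl (0.0245), 0.20 ± 0.06 for Clock (0.0288), -0.67 ± 0.18 for Per3 (0.017), -0.59 ± 0.18 for Tef (0.0262) and -0.97 ± 0.31 for Dbp (0.0304). Nr1d1 (-0.84 ± 0.32, adjusted p = 0.0536) and Nr1d2 (-0.38 ± 0.15, adjusted p = 0.0712) missed the threshold, and Per1 (-0.01 ± 0.22) and Per2 (0.06 ± 0.18) had standard errors larger than their differences. Without the library that stood apart, Arntl, Npas2, Clock, Per3, Tef and Dbp were called and so was Nr1d1 (-0.72, adjusted p = 0.0324), against 28.9% of all genes, and the differences were 0.72 for Npas2 and 0.52 for Arntl, each less than 1.54 and 0.90 with that library. The count was 3 without C57BL/6J high-fat replicate 1 (17.8% of all genes called) or without WSB/EiJ standard replicate 1 (19.1% of all genes called), when Npas2, Arntl and Per3 were called and Clock, Tef and Dbp were not. Over the 24 fits that each left out 1 library, Dbp was called in 17, Clock in 18 and Tef in 21. Leaving out all 6 CAST/EiJ libraries, which was chosen after seeing the data, left 6 members called against 30.2% of all genes, with Nr1d1 among them and Clock (0.15, adjusted p = 0.099) not.

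Markers of other cells moved with diet as well. The summed adipocyte markers were 4760 to 6940 CPM in WSB/EiJ high-fat mice against 10200 to 12100 CPM in WSB/EiJ standard mice, and 8950 to 10800 CPM in NZO/HiLtJ high-fat mice against 13700 to 14300 CPM in NZO/HiLtJ standard mice. The 6 epithelial markers summed to 108 to 587 CPM against 4.1 to 19.2 CPM in WSB/EiJ mice, and 4 macrophage markers to 1310 to 1780 CPM against 404 to 616 CPM in NZO/HiLtJ mice. Their part in the diet differences of the clock genes was not tested. With the 6 libraries at or above 5 CPM of Epcam left out, which leaves no WSB/EiJ high-fat mouse, 4 members were called (Dbp, Nr1d1, Per3 and Tef, all lower) against 12.3% of all genes.

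NZO/HiLtJ was the strain in which every member separated by diet. Arntl, Npas2 and Clock lay above in all 3 high-fat mice, and Per1, Per2, Per3, Nr1d1, Nr1d2, Dbp and Tef lay below, 10 of 10 against 46.5% of all genes. Npas2 had 4.18, 5.70 and 3.69 CPM in NZO/HiLtJ high-fat mice and 1.87, 2.61 and 1.75 CPM in NZO/HiLtJ standard mice. Per2 had 7.77, 7.07 and 10.3 CPM in the high-fat mice and 14.4, 17.0 and 16.5 CPM in the standard mice, and Nr1d1 had 38.0, 32.2 and 41.2 CPM against 59.4, 80.5 and 79.1 CPM. In the test with the spread of all 24 libraries, 0 members were called against 4.89% of all genes (edgeR's quasi-likelihood test), 4 had an unadjusted p below 0.05 and DESeq2 also called 0. Those 4 were Dbp (-1.43 ± 0.64, log2), Per2 (-0.93 ± 0.36), Per3 (-0.92 ± 0.37) and Tef (-0.89 ± 0.37). Fitted on the 6 NZO/HiLtJ libraries alone, with their own spread, the same test called 9 of 10 (all but Per1), against 32.7% of all genes. There Dbp had -1.43 (adjusted p = 0.00261), Nr1d1 -0.97 (0.00308) and Arntl 0.55 (0.00783). Without the CAST/EiJ library that stood apart, 2 were called, Per3 and Tef, against 11.7% of all genes.

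The other strains showed less of this. In C57BL/6J mice all 10 members overlapped between diets (10.8% of all genes did not overlap) and 0 were called, at an unadjusted p as well and with DESeq2, against 0.00998% of all genes. The C57BL/6J high-fat mice were unlike each other: the third had 11.4 CPM of Arntl, 93.8 CPM of Dbp and 130 CPM of Nr1d1, while the first had 29.5 CPM of Arntl, 18.4 CPM of Dbp and 17.5 CPM of Nr1d1. The second had 27.45 CPM of Arntl, 25.46 CPM of Dbp and 78.72 CPM of Nr1d1. The third lay within the range of the standard-diet mice in Arntl and Nr1d1 and above it in Dbp. Both the first and the second lay outside it in all 3 genes. The first also held 11.5 CPM of Epcam, 747 CPM of smooth muscle markers and 116 CPM of reproductive tract markers. The other high-fat mice of the strain held at most 0.494, 250 and 6.22 CPM of these, and the second held 0.0899, 164 and 6.22 CPM. The part of such cells in the difference was not tested.

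In WSB/EiJ mice 1 member was called, Per2, against 21.5% of all genes. It had 9.64, 17.7 and 14.9 CPM in WSB/EiJ high-fat mice and 7.48, 2.79 and 7.92 CPM in WSB/EiJ standard mice, which did not overlap, a log2 difference of 1.21 ± 0.36 (adjusted p = 0.0267). The call was lost without WSB/EiJ high-fat replicate 2 (1.00, adjusted p = 0.1209), WSB/EiJ standard replicate 1 (1.39, adjusted p = 0.0656) or WSB/EiJ standard replicate 2 (0.87, adjusted p = 0.1113). The 40% of genes that did not overlap between the WSB/EiJ diets included 3 members, Per2 above and Per3 and Tef below. The high-fat mice that were higher in Per2 were those with the epithelial markers at 108 to 587 CPM. They also held 811 to 3690 CPM of smooth muscle markers and 126 to 225 CPM of reproductive tract markers, against 65.6 to 575 CPM and 1.69 to 40.3 CPM in WSB/EiJ standard mice, and the one with the highest Per2 held the 2160 CPM of brain markers. The part of these cells in the Per2 difference was not tested. In the NZO/HiLtJ mice the Per2 difference had the other sign, and the test of whether the diet effect differed among strains gave an adjusted p of 0.0856 for Per2 and called 0 members against 3.08% of all genes (1 at an unadjusted p below 0.05, 1 with DESeq2). Without the library that stood apart, Per2 passed that test (adjusted p = 0.0312), alone among the members, against 17.6% of all genes, and it also passed without WSB/EiJ high-fat replicate 1 (adjusted p = 0.04899).

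In CAST/EiJ mice the diet result turned on a single library. Npas2 passed with a log2 difference of 3.73 ± 0.94 (adjusted p = 0.0414), 1 of 10 against 4.87% of all genes, and was 0.47 (adjusted p = 0.777) without the library that stood apart, when 0 members were called (edgeR's quasi-likelihood test, 2 at an unadjusted p below 0.05) against 0.304% of all genes. Arntl likewise had 1.90 ± 0.57 (adjusted p = 0.056) with it and 0.36 (adjusted p = 0.767) without it. With that library kept and CAST/EiJ high-fat replicate 3 left out, 6 members were called against 23.3% of all genes, and Npas2 had 4.24 (log2, adjusted p = 0.005888). Npas2 also lost the call without most other single libraries. In the CAST/EiJ high-fat mice other than that one, Per3 (121 and 131 CPM), Nr1d2 (72.2 and 83.9 CPM) and Tef (267 and 335 CPM) lay below the lowest standard-diet mouse, and Arntl, Npas2 and Clock above the highest. No share of all genes is given for this smaller split of 2 against 3 mice, which separates more readily than 3 against 3. It only describes these mice. Npas2 rested on 15 and 14 counts there, against 11, 12 and 15 counts in the standard-diet mice. With that library too, 6 members did not overlap between the CAST/EiJ diets, against 20% of all genes.

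**Figure D3:**
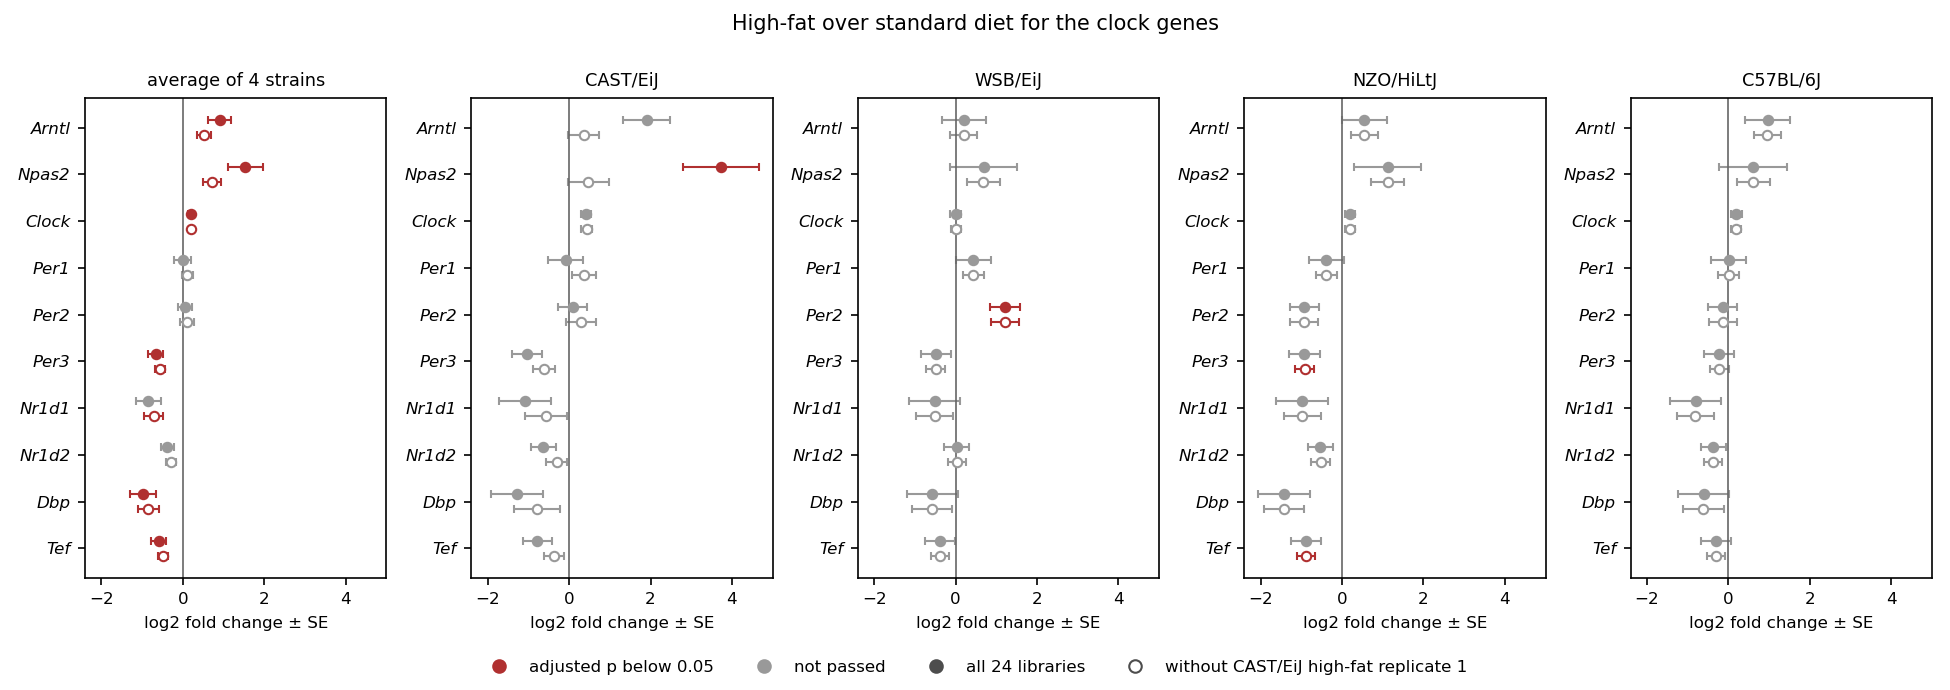
Log2 fold changes, with standard errors, of high-fat over standard diet for the 10 clock genes, as the average of the 4 strains and within each strain. Filled points use all 24 libraries, open points leave out the CAST/EiJ high-fat library that stood apart, and red marks an adjusted p below 0.05. The averages of Arntl, Npas2 and Clock lie right of 0 and those of Per3, Nr1d1, Nr1d2, Dbp and Tef left of 0, and Npas2 in CAST/EiJ drops to 0.47 without that library.

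The opposition of activators and targets was also present between mice of the same group. With each gene's group mean removed, the deviations of the 24 libraries in Arntl ran against those in Nr1d2 (r = -0.957, rho = -0.935), Dbp (r = -0.933, rho = -0.915), Per3 (r = -0.91, rho = -0.868), Tef (r = -0.888, rho = -0.846) and Nr1d1 (r = -0.846, rho = -0.749), and with those in Npas2 (r = 0.918, rho = 0.76). Labels were permuted within groups 100000 times for each of 9 relations, and the adjusted p was 4.5e-05 for Nr1d2 and Dbp, 9e-05 for Nr1d1, 0.000315 for Per3, 0.00166 for Npas2 and 0.00405 for Tef. The unadjusted 1e-05 of Nr1d2 and Dbp is the smallest these permutations can give. By permutation, Clock (r = 0.198, adjusted p = 0.574), Per1 (r = -0.739, adjusted p = 0.118) and Per2 (r = -0.385, adjusted p = 0.166) did not pass.

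With the 2 libraries farthest out in Arntl removed, r was -0.915 for Nr1d2, -0.878 for Dbp, -0.798 for Per3, -0.742 for Tef, -0.676 for Nr1d1 and 0.813 for Npas2. Over the 18 libraries of the other 3 strains, r was -0.915 for Nr1d2 (adjusted permutation p = 0.00108), -0.914 for Dbp (0.00144), -0.75 for Per3 (0.00207), -0.678 for Tef (0.0259), 0.772 for Npas2 (0.0494) and -0.653 for Nr1d1 (0.157, not passed). No coefficient between members over the raw levels of all libraries is given, since the CAST/EiJ libraries form a separate cluster. All libraries share 1 lane label, so no batch could be split off.

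**Figure D4:**
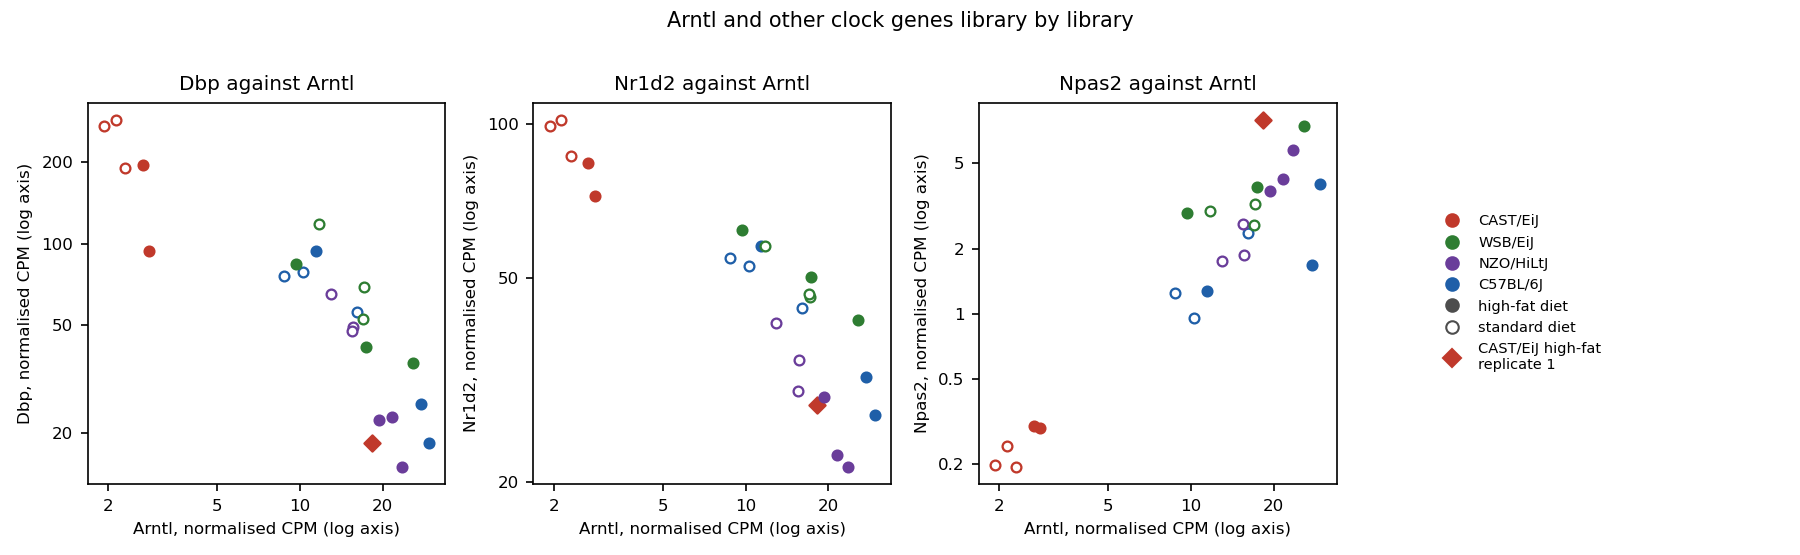
Dbp, Nr1d2 and Npas2 against Arntl in the 24 libraries, in normalised CPM on log axes, with strains by colour, high-fat mice filled and standard-diet mice open. The libraries fall along a descending band for Dbp and Nr1d2 and an ascending one for Npas2. The 5 CAST/EiJ libraries with 1.94 to 2.82 CPM of Arntl form a cluster of their own, and the diamond, the CAST/EiJ library that stood apart, lies among the other strains at 18.3 CPM.

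As a description with no test, the mean log2 level of Arntl, Npas2 and Clock minus that of the 7 other members, each gene centred over the 24 libraries, placed the mice in order. It was 2.14, -2.23 and -2.65 in CAST/EiJ high-fat mice and -2.93, -3.28 and -3.21 in CAST/EiJ standard mice. The values were 0.97, 1.41 and 0.14 in WSB/EiJ high-fat and 0.19, 0.94 and 0.63 in WSB/EiJ standard mice, and 1.97, 2.30 and 1.51 in NZO/HiLtJ high-fat and 0.52, 0.66 and 0.11 in NZO/HiLtJ standard mice. C57BL/6J mice had 1.62, 1.02 and -0.70 on the high-fat diet and 0.25, -0.66 and -0.72 on the standard diet. The CAST/EiJ mice other than the first lay below every mouse of the other strains, and all NZO/HiLtJ and WSB/EiJ mice had positive values. Each gene was centred over all 24 libraries, CAST/EiJ included, so the sign is relative to their mean and is not a measure of phase. The diets separated in NZO/HiLtJ and CAST/EiJ mice and overlapped in WSB/EiJ and C57BL/6J mice. Whether the mice differ in the hour of collection, in the phase of the clock at a given hour or in the amount of these transcripts cannot be told apart with 1 collection per mouse and no hour in the labels.

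**Figure D5:**
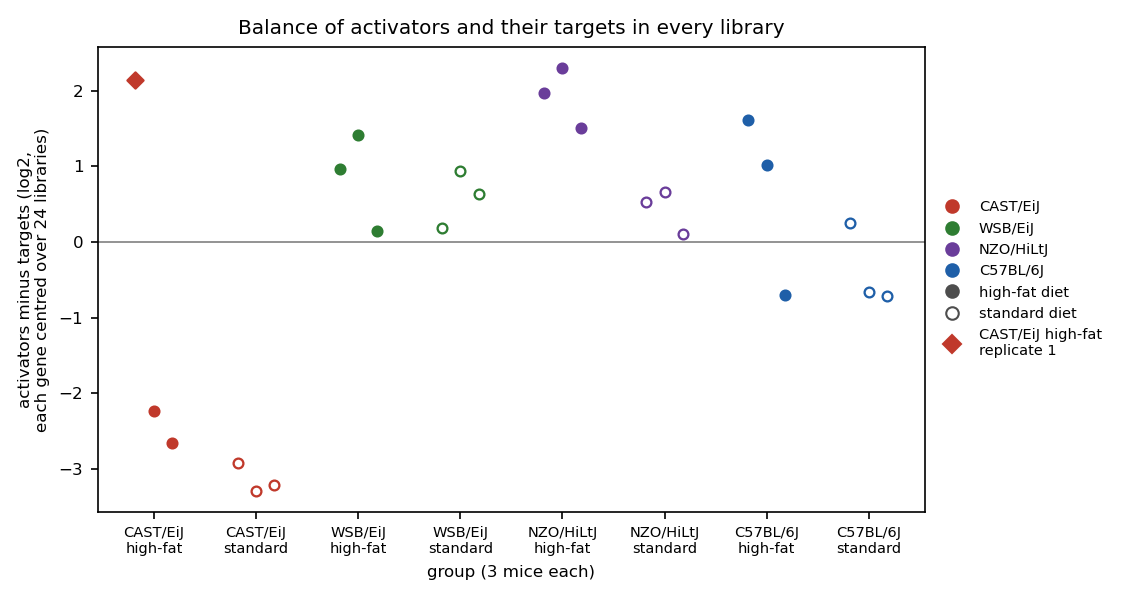
Mean log2 level of the 3 activators minus that of the 7 targets in every library, each gene centred over the 24 libraries, by group, with high-fat groups filled and to the left of the standard groups of their strain. The CAST/EiJ libraries lie between -3.28 and -2.23 but for the diamond, which lies at 2.14 among the NZO/HiLtJ high-fat libraries at 1.51 to 2.30.

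A list of 21 further genes of the clock and its outputs, all of which passed the filter, was read with the members. CAST/EiJ had 8 higher and 4 lower than C57BL/6J, 12 of 21 against the 39% of all genes called. The median log2 fold change was 0.06 against 0.02 over all genes. Without the library that stood apart 7 were higher and 5 lower, again 12 of 21, against 48.8% of all genes called. With all libraries the higher ones were Ciart, a repressor of the activating pair (2.67 ± 0.42, log2, adjusted p = 4.95e-05), Usp2, a deubiquitinase with a strong daily rhythm (2.10 ± 0.34, adjusted p = 8.41e-05), Wee1, a cell-cycle kinase driven through E-boxes (1.51 ± 0.19, adjusted p = 3.71e-06), Nampt, the rate-limiting enzyme of NAD salvage (1.08 ± 0.19, adjusted p = 0.000201), and Hlf, the third relative of Dbp and Tef (1.95). Cry1, a repressor that acts with the PER proteins (1.15), Rora, an activator at the RORE (0.81), and Bhlhe40 (1.22) were the other 3, of which Bhlhe40 was not called without the library that stood apart (0.35, adjusted p = 0.2924). Arntl2, a relative of Arntl (-1.39, adjusted p = 0.0135), Timeless (-1.26, adjusted p = 0.000237), Fbxw11 (-0.52) and the PER kinase gene Csnk1d (-0.38) were lower.

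With diet, averaged over strains, the list of 21 had 5 higher (Wee1 0.48, Arntl2 0.99, Nfil3 0.91, Timeless 0.48 and Rorb 2.55, log2), 5 of 21 or a share below the 28.9% of all genes called. By edgeR's quasi-likelihood test 4 more (Nampt, Bhlhe41, Fbxl21 and Cry2, with log2 differences between -0.51 and -0.28) had an unadjusted p below 0.05 and did not pass after adjustment. The median of the list was 0.03 against 0.05 over all genes. Without the library that stood apart 3 were higher, namely Wee1, Arntl2 and Nfil3, which encodes a repressor at D-boxes, and 1 lower, Nampt. These 4 of 21 were again a share below the 28.9% of all genes called, and Rorb had -0.0059. Wee1, Arntl2 and Nfil3 were called higher in both fits, as were Arntl, Npas2 and Clock. Nfil3 is known to be repressed by the NR1D receptors through the RORE, and their part in its diet difference was not tested.

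A list of 12 genes induced by glucocorticoids, hormones that rise daily and with stress, was read because Per1 is among the genes they induce. CAST/EiJ had 6 of them higher and 1 lower than C57BL/6J, against the 39% of all genes called, with a median of 0.70 (log2) against 0.02 over all genes. They included Fkbp5, which encodes a chaperone of the glucocorticoid receptor (2.54 ± 0.39, adjusted p = 3.88e-05), Sgk1, a kinase (1.13, adjusted p = 0.00188), and Tsc22d3 (0.76), and Cdkn1a was lower (-1.91, adjusted p = 0.000133). The counts were again 6 and 1 without the library that stood apart, against 48.8% of all genes called. Mt2 was called there in place of Lcn2. High-fat over standard diet had 5 higher over the 4 strains, against the 28.9% of all genes called, with a median of 0.51 against 0.05, among them Cdkn1a (0.83) and Sgk1 (0.56), and 8 higher without the library that stood apart, again against 28.9%. Lcn2, also among the 5, had 3.82 with all libraries, 1.82 (adjusted p = 0.0198) without the library that stood apart, where its level was 2751 CPM, and 0.26, not called, without the 6 libraries at or above 5 CPM of Epcam. The part of these hormones, which were not measured, was not tested.

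Of 10719 genes with a mean of at least 5 CPM, the 5 whose log levels ran most like Arntl over the 24 libraries were Smarce1 (r = 0.919), Cnot6 (0.918), Trp53 (0.915), Lig3 (0.915) and Wsb1 (0.913), given as a description with no p. Over the 18 libraries without CAST/EiJ, which cover a narrower range of Arntl, their coefficients were 0.206, 0.502, 0.322, 0.373 and 0.529. The 5 that ran most against Arntl were Clmn (r = -0.94), Tcaf2 (-0.929), Coq10b (-0.919), Zfp931 (-0.919) and Pigyl (-0.919). Without CAST/EiJ these had -0.614, -0.409, -0.296, -0.302 and -0.575. Whether the strain or the narrower range weakened the coefficients with Arntl was not tested. The 5 most like Dbp were Por, the reductase that feeds electrons to cytochrome P450 enzymes (r = 0.921), Epm2a (0.916), Egln2 (0.913), Dhtkd1 (0.912) and Slc5a6 (0.905), and without CAST/EiJ these stayed at 0.847, 0.789, 0.794, 0.773 and 0.798. The points of these coefficients share libraries, scaling and group differences.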

How the data were processed

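The values come from 24 TruSeq mRNA libraries of inguinal fat, per the labels' protocols. A deposited table holds the authors' expected counts by gene, all of them whole numbers. The submitters' processing notes name RSEM 1.2.1, Bowtie 0.12.8, CASAVA 1.8.0 and the builds NCBIM37 and mm9, with no role or order, and whether counting used the strand is not given in the sources used here. The notes name no build for each strain, and how strain sequence bears on mapping was not tested. A second table deposited by the authors holds an upper-quartile normalised signal, equal to the count over the 75th percentile of a library's counts above 0, within 0.0005. It was used as an alternative for the correlations. Symbols were matched to the table's Ensembl identifiers through a reference name table, for all 10 clock genes.

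Counts were fitted in R 4.3.3 with edgeR 4.0.16 (filter by group, TMM scaling, 1 coefficient for each of 8 groups, 16 residual degrees of freedom, quasi-likelihood F test), on the whole table, with Benjamini-Hochberg adjustment over the 20035 genes left of 37991 and a threshold of 0.05. Standard errors are the log2 fold change over the root of F. Levels are TMM-scaled CPM, and those of markers (Adipoq, Epcam and marker sums) are CPM of the library's total count. DESeq2 1.42.0, limma-voom 3.58.1, other scalings, no filter, subsets of libraries and each library left out were alternatives. Correlations used log2 CPM with a prior count of 2 and scipy 1.17.1. The edgeR step was tested on simulated data. Named genes are the 10 clock genes, 2 lists (21 further clock genes and 12 genes induced by glucocorticoids), the 5 genes most like Arntl and Dbp and the 5 that ran most against Arntl. The members and lists were chosen with earlier results of these data known, and 1 further gene of the clock list is not reported here. The labels say biological replicates, 3 mice per group, and replicate numbers only name libraries. Ranges and SDs cover the spread between mice, and common dispersion was 40.06% as a coefficient of variation.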

Additional observations from a re-analysis of the deposited data

How the results depend on the processing

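The number of the 10 clock genes called kept its side within 1.5 times under RLE and upper-quartile scaling, no filter, DESeq2 and limma-voom, except as follows. High-fat over standard diet called 0 in NZO/HiLtJ with all libraries, 5 without the libraries at 5 CPM or more of Epcam, 9 within the strain alone and 2 without the 6 CAST/EiJ libraries. In CAST/EiJ it called 1, against 4 with DESeq2 and 0 with no filter, limma-voom, the Epcam rule or the strain alone, and in WSB/EiJ 1, against 0 within the strain alone. The interaction called 0, and 1 with DESeq2 or without CAST/EiJ. NZO/HiLtJ over C57BL/6J called 2, against 1 with RLE scaling, no filter or limma-voom, 5 with DESeq2 or without CAST/EiJ, 6 with the Epcam rule and 0 on the standard diet. High-fat mice alone gave 2 instead of 7 for CAST/EiJ over C57BL/6J (8 without the library low in adipocyte markers, and 4 on the standard diet without CAST/EiJ standard replicate 2), 3 instead of 9 for CAST/EiJ over WSB/EiJ and 0 instead of 2 for WSB/EiJ over C57BL/6J, which had 1 on the standard diet. NZO/HiLtJ over WSB/EiJ called 3, against 5 with DESeq2, 7 without CAST/EiJ and 1 on the standard diet. Over all genes, the share called for diet was 20.8% in NZO/HiLtJ with the Epcam rule, 12% there without CAST/EiJ and 14.3% in CAST/EiJ with DESeq2. It was 28.3% for NZO/HiLtJ over C57BL/6J with DESeq2, 42.6% with the Epcam rule and 35.3% without CAST/EiJ, and for NZO/HiLtJ over WSB/EiJ 48.9% with DESeq2, 57.1% without CAST/EiJ and 28.1% on the standard diet. The causes were not tested, though subsets hold fewer libraries.

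Leaving out each library in turn gave 3 to 8 called for the averaged diet effect, 0 to 0 in C57BL/6J, 0 to 2 in NZO/HiLtJ, 0 to 6 in CAST/EiJ, 0 to 1 in WSB/EiJ and 0 to 1 for the interaction. It gave 8 to 10 for any strain difference, 6 to 8 for CAST/EiJ over C57BL/6J, 0 to 5 for NZO/HiLtJ over C57BL/6J, 1 to 3 for WSB/EiJ over C57BL/6J, 8 to 8 for NZO/HiLtJ over CAST/EiJ, 2 to 7 for NZO/HiLtJ over WSB/EiJ and 5 to 9 for CAST/EiJ over WSB/EiJ.

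Of 1247 alternative values of the 39 calls, 168 lost the call and 0 changed sign. Uncalled or list genes that changed sign included these, as log2 fold changes. The averaged diet effect of Per1 (-0.0063) was 0.054 with the Epcam rule, 0.033 without CAST/EiJ and -0.099 to 0.11 without single libraries, and that of Per2 (0.057) was -0.34 with the Epcam rule and -0.030 to 0.12 without single libraries. Rorb with diet (2.55) was -1.77 with the Epcam rule and -0.0059 to 3.2 without single libraries, the lowest without CAST/EiJ high-fat replicate 1. CAST/EiJ over C57BL/6J was 0.29 for Npas2 in high-fat mice, 0.25 for Per1 and -0.32 for Bhlhe40 in high-fat mice without the library low in adipocyte markers, and -0.34 to 0.065 for Per1 (-0.18) without single libraries. Lcn2 in NZO/HiLtJ over CAST/EiJ (-3.46) was 0.53 with the Epcam rule, 0.83 on the standard diet and -3.75 to 0.54 without single libraries, the highest without CAST/EiJ high-fat replicate 1. No paired analysis was possible because the labels give the groups no shared replicate numbers. The alternatives without CAST/EiJ, and within 1 diet without 1 library, were chosen after seeing the data. With 3 mice per group, the spread between mice, not depth, limits these values, apart from Npas2 in CAST/EiJ, with 11 counts in its lowest library.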
